A study of Mus musculus with 16 samples.

Results

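The genes described here are the ligands, receptors and response genes of fibroblast growth factor (FGF) signalling in mouse embryos at E10.5, in mid-gestation. They are 33 genes given as a list and matched by Ensembl identifier, of 54838 identifiers in the count tables: 11 secreted ligands, 4 intracellular FGF homologous factors, 5 receptors and 13 response genes. All 33 passed the filter on low counts, which left 21284 genes to test. The study sequenced poly-A RNA from a Head part, the region anterior to the third branchial arch pair, and a Tail part, the region posterior to the forelimbs. Each part was taken from embryos of 4 genotypes: Fuz;Gpr161 DKO, which lack both genes and are written DKO, Fuz KO, Gpr161 KO, and WT. There were n = 2 libraries in each of the 8 groups and no treatment. The labels give no strain and describe no allele. Fuz is a planar cell polarity gene whose product helps cilia to form, and Gpr161 codes for a ciliary receptor that restrains Hedgehog signalling.

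FGF ligands are secreted proteins that bind receptor tyrosine kinases together with heparan sulphate, and the receptors pass the signal through the RAS and ERK kinases. The signal switches on transcription factors of the Etv class and a set of inhibitors, among them Sprouty, Spred and Dusp proteins and Il17rd, which feed back on the same cascade, so that their transcripts are widely used as readouts of FGF signalling. At this stage Fgf8 and Fgf17 are made at the isthmus between midbrain and hindbrain, which they help to pattern, and Fgf8 also in facial ectoderm, limb bud ectoderm and the tail bud.

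Levels are given as CPM, the usual depth-scaled unit, computed from the deposited counts and library totals adjusted by TMM, and levels of different genes are compared only as CPM per kb of exon. A gene was called higher or lower at an adjusted p under 0.05, from edgeR's quasi-likelihood test fitted on all 16 libraries with Benjamini-Hochberg adjustment over all 21284 genes. Library totals ran from 39062489 to 53680317 counts. Whether the libraries of 1 group are from different embryos is not in the labels. The 2 Gpr161 KO libraries of each part differed in sex, given below, and so came from different embryos. For the other groups this is not known. The p-values rest on the spread between libraries, which may be technical in those groups. The 6 markers of head regions summed to 119 to 276 CPM in the Head libraries and 3.48 to 55.8 CPM in the Tail libraries. The 9 markers of caudal regions summed to 30.2 to 51.1 CPM in the Head libraries and 329 to 604 CPM in the Tail libraries, so the parts were as labelled. Fuz had 0.808 to 1.89 CPM in the DKO and Fuz KO libraries, against 5.17 to 7.84 CPM in WT. Gpr161 had 2.12 to 5.44 CPM in the DKO and Gpr161 KO libraries, against 46.8 to 55 CPM in WT. The number 1 Fuz KO libraries had 25.4 CPM of Gpr161 in the Head and 24.3 CPM in the Tail. Their number 2 partners had 52.5 CPM in the Head and 42.7 CPM in the Tail, so the 2 Fuz KO libraries of each part differed in Gpr161 level. All DKO and Fuz KO libraries were male and all WT libraries female, while in both parts Gpr161 KO 1 was from a male and Gpr161 KO 2 from a female, so sex and genotype cannot be told apart in the comparisons of DKO or Fuz KO with WT.

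Several libraries stood apart in genes outside FGF signalling. A list of 19 hypoxia and glycolysis genes summed in the Head to 16500 and 9320 CPM in the DKO libraries, 22900 and 6530 CPM in Fuz KO, 12500 and 8780 CPM in Gpr161 KO, and 5730 and 5960 CPM in WT. In the Tail it summed to 16300 and 9830 CPM in DKO, 20500 and 7180 CPM in Fuz KO, 12800 and 8770 CPM in Gpr161 KO, and 6590 and 7290 CPM in WT. The number 1 library was thus the higher of the pair in every mutant group. A list of 15 cardiomyocyte genes summed to 2670 and 568 CPM in the Head Gpr161 KO libraries and to 11.7 to 42.6 CPM in the other Head libraries, where 0 to 3 of the 15 were at 0. Where leaving out the number 1 Fuz KO and DKO libraries changed the number of members called between genotypes, the count without them is given beside that comparison.

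In WT embryos the levels per length spanned a wide range within each role. Dusp6, a phosphatase that inactivates ERK, stood highest, with means of 35.1 ± 0.288 CPM per kb in Head WT and 40.9 ± 4.98 CPM per kb in Tail WT (SD, n = 2 each). Flrt3, a transmembrane protein that binds FGF receptors, had 18.3 ± 1.00 CPM per kb in Head WT and 21.6 ± 1.01 CPM per kb in Tail WT. Among the receptors, Fgfr1 had 15.2 ± 0.798 and 16.2 ± 0.0608 CPM per kb in Head WT and Tail WT, and Fgfrl1, a receptor without a kinase domain, 12.7 ± 0.467 and 14.7 ± 0.491 CPM per kb.

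The neighbours below them were close. In Head WT, Fgfr2 averaged 11 ± 0.478 CPM per kb and Fgfr3 8.23 ± 1.2 CPM per kb, while Fgfr4, the only receptor near the bottom of the range, averaged 0.118 ± 0.0679 CPM per kb. Fgf8 was the highest ligand per length in both parts, with 11 ± 1.48 CPM per kb in Head WT and 14.2 ± 3.97 CPM per kb in Tail WT. In Head WT it was followed by Fgf17 at 6.34 ± 1.74 CPM per kb, Fgf15 at 5.93 ± 1.10 CPM per kb and Fgf18 at 4.6 ± 1.27 CPM per kb, and these 3 lay within their own spread of each other. Fgf4, Fgf5, Fgf9, Fgf16 and Fgf20 stayed under 1 CPM per kb in every WT library. Of these, Fgf16 had 4 and 0 counts in Head WT and 0 in both Tail WT libraries.

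**Figure D1:**
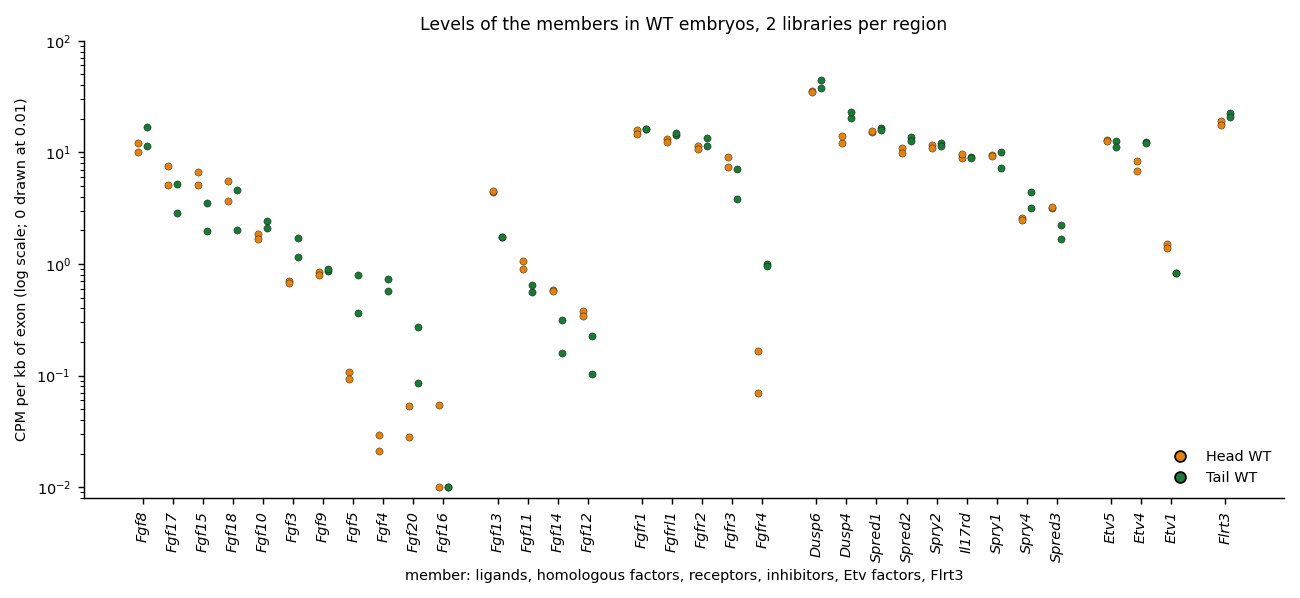
Levels of the 33 members in the 2 Head WT and 2 Tail WT libraries, in CPM per kb of exon on a log axis, ordered by role and level, with 0 drawn at 0.01. Dusp6, Flrt3 and 3 of the 5 receptors lie above 10 in both parts, and Fgf4 and Fgfr4 lie lower in the Head than in the Tail.

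The regional comparison of Head WT with Tail WT asked where the pathway's genes are used in the normal embryo. By edgeR's quasi-likelihood test 2 members were higher and 3 lower in the Head, of 33, where 3.77% of all genes tested were called, and the members' median log2 difference was -0.09 against -0.02 over all genes. Fgf13, an intracellular factor that binds sodium channels and microtubules in neurons, had 17.7 and 18.0 CPM in Head WT against 6.96 and 7.00 CPM in Tail WT, and was higher by 1.35 in log2 (SE 0.21, adjusted p = 0.00239). Fgfr4, a receptor expressed in somitic muscle precursors, had 0.247 and 0.587 CPM in Head WT against 3.52 and 3.41 CPM in Tail WT (log2 -3.05, SE 0.56, adjusted p = 0.00693). Fgf4, a ligand of the tail bud and of limb bud ectoderm, had 0.0673 and 0.0939 CPM in Head WT, which are 3 and 4 reads, against 2.35 and 1.83 CPM in Tail WT (log2 -4.65, SE 1.06, adjusted p = 0.0276). In these 3 genes the Head WT and Tail WT libraries did not overlap.

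The Etv factors split by region. Etv4 had 26.0 and 21.1 CPM in Head WT against 38.7 and 37.7 CPM in Tail WT (log2 -0.70, SE 0.16, adjusted p = 0.0299), and Etv1 had 20.0 and 18.4 CPM in Head WT against 11.1 CPM in both Tail WT libraries (log2 0.79, SE 0.20, adjusted p = 0.041). Etv5, the closest relative of Etv4 in role, had 52.8 and 52.0 CPM in Head WT and 52.1 and 46.0 CPM in Tail WT. Of the 5 calls, Fgf13 kept an adjusted p of at most 0.0377 with each WT library left out in turn. Fgfr4 had 0.124 without Head WT 1, Fgf4 0.0544 to 0.255, Etv4 0.0952 to 0.373 and Etv1 0.156 to 0.263. Fewer of all genes were also called with each of these WT libraries left out. With sex as a term Etv1 had an adjusted p of 0.0599 by edgeR's test. All WT libraries were female, so that term could not adjust this comparison, and the log2 difference stayed at 0.79 (SE 0.21).

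Library numbers were taken to pair Head and Tail libraries of a genotype, which the labels do not state. Across genes, the deviations of number 1 from number 2 had r = 0.133 between Head WT and Tail WT. Between genotypes r ran from -0.0787 to 0.302, so the pairing of the WT libraries was not established. With number within genotype as a replicate block, 11 members were called between Head WT and Tail WT, where 9.43% of all genes were. The other 6 were Fgf15, higher in the Head by 1.16 in log2 (adjusted p = 0.000849), Spred3, higher by 0.73 (adjusted p = 0.00711), and 4 lower there: Dusp4 (log2 -0.73, adjusted p = 0.00205), Fgf5 (log2 -2.42, adjusted p = 0.0152), Spry4 (log2 -0.56, adjusted p = 0.0345) and Fgf3 (log2 -1.02, adjusted p = 0.0498). Fgf3 and Fgf5 are secreted ligands, Spred3 and Spry4 inhibitors of the RAS to RAF step, and Dusp4 an ERK phosphatase.

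In the Head, Fgf8, Fgf17 and 5 of the 13 response genes were higher in DKO than in Gpr161 KO, and 2 of those response genes were lower in Gpr161 KO than in WT. Head Gpr161 KO against Head WT asked what loss of Gpr161 does, and 2 of 33 members, Etv4 and Il17rd, fell and 0 rose. Head DKO against Head Gpr161 KO asked what loss of Fuz adds, and 7 of 33 members rose and 0 fell: the ligands Fgf8 and Fgf17, the inhibitors Il17rd, Spry2 and Spry4, and the transcription factor genes Etv4 and Etv5. Over all genes tested 2.02% were called in the Gpr161 KO comparison, 1.51% as higher and 0.507% as lower, and 4.16% in the DKO comparison, 1.03% as higher and 3.13% as lower. Both comparisons use the Head Gpr161 KO libraries, so the values of a gene in them are not independent. In such bulk samples fewer cells of a type and less RNA per cell cannot be told apart.

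Fgf8 had 27.2 and 24.1 CPM in Head DKO, 34.8 and 20.1 CPM in Fuz KO, 7.02 and 4.75 CPM in Gpr161 KO, and 13.5 and 16.3 CPM in WT. The Gpr161 KO libraries were the lowest of the Head and did not overlap any other group. The log2 difference was 2.12 for DKO against Gpr161 KO (SE 0.32, adjusted p = 0.00316) and -1.34 for Gpr161 KO against WT (SE 0.32, adjusted p = 0.0504), which did not pass. Fgf17, a ligand of the same subfamily, had 20.4 and 22.9 CPM in Head DKO, 30.3 and 23.8 CPM in Fuz KO, 2.51 and 2.28 CPM in Gpr161 KO, and 8.64 and 12.8 CPM in WT. Its groups lay in the same order, with no overlap. In DKO over Gpr161 KO it rose by 3.17 in log2 (SE 0.55, adjusted p = 0.00822) and had a log2 difference of -2.16 in Gpr161 KO against WT (SE 0.53, adjusted p = 0.0654).

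Fgf18, the remaining ligand of that subfamily, did not follow them in the Head. It had 6.62 and 7.62 CPM in DKO, 5.11 and 4.83 CPM in Fuz KO, 6.11 and 7.05 CPM in Gpr161 KO, and 4.40 and 6.52 CPM in WT, with log2 0.11 for DKO against Gpr161 KO (SE 0.40). Fgf10, a mesenchymal ligand that signals to epithelia through Fgfr2, stood the other way round: 9.09 and 7.43 CPM in DKO, 8.52 and 7.47 CPM in Fuz KO, 17.1 and 14.8 CPM in Gpr161 KO, and 8.52 and 7.67 CPM in WT. Its Gpr161 KO libraries were above all the other Head libraries, and its log2 differences were -0.95 for DKO against Gpr161 KO (adjusted p = 0.103) and 0.98 for Gpr161 KO against WT (adjusted p = 0.142), neither past the threshold.

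Among the response genes Il17rd, a transmembrane inhibitor of FGF signalling, had the lowest adjusted p in DKO against Gpr161 KO, and Etv4 in Gpr161 KO against WT. Il17rd had 171 and 145 CPM in Head DKO, 132 and 144 CPM in Fuz KO, 57.8 and 55.8 CPM in Gpr161 KO, and 97.0 and 106 CPM in WT. The Gpr161 KO pair lay under the WT pair, and the WT pair under the groups that lack Fuz. In log2 it fell by 0.84 in Gpr161 KO against WT (SE 0.14, adjusted p = 0.00667) and rose by 1.48 in DKO over Gpr161 KO (SE 0.14, adjusted p = 0.000109). Etv4, an ETS transcription factor switched on by FGF signals, had 30.2 and 31.3 CPM in Head DKO, 23.6 and 30.4 CPM in Fuz KO, 10.1 and 12.1 CPM in Gpr161 KO, and 26.0 and 21.1 CPM in WT. It fell by 1.09 in Gpr161 KO against WT (SE 0.16, adjusted p = 0.00535) and rose by 1.47 in DKO over Gpr161 KO (SE 0.17, adjusted p = 0.000407). Unlike Il17rd, its Fuz KO and WT libraries overlapped.

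Etv5, a second ETS factor of this class, had 61.9 and 64.0 CPM in Head DKO, 52.1 and 57.8 CPM in Fuz KO, 40.3 and 33.2 CPM in Gpr161 KO, and 52.8 and 52.0 CPM in WT. It rose by 0.78 in DKO over Gpr161 KO (SE 0.13, adjusted p = 0.00492) and had log2 -0.51 in Gpr161 KO against WT (SE 0.13, adjusted p = 0.0596). The Gpr161 KO libraries were lowest and the DKO libraries highest of the Head. Spry4, a Sprouty inhibitor, had 18.7 and 14.5 CPM in Head DKO, 11.9 and 14.7 CPM in Fuz KO, 8.33 and 7.03 CPM in Gpr161 KO, and 12.4 and 11.7 CPM in WT, and rose by 1.11 in DKO over Gpr161 KO (SE 0.22, adjusted p = 0.0139). Spry2, another Sprouty inhibitor, had 39.7 and 31.1 CPM in Head DKO, 39.9 and 30.6 CPM in Fuz KO, 23.5 and 18.8 CPM in Gpr161 KO, and 24.4 and 22.7 CPM in WT, and rose by 0.74 in DKO over Gpr161 KO (SE 0.19, adjusted p = 0.0483). For Spry2 the Gpr161 KO and WT libraries overlapped, while for Spry4 they did not.

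**Figure D2:**
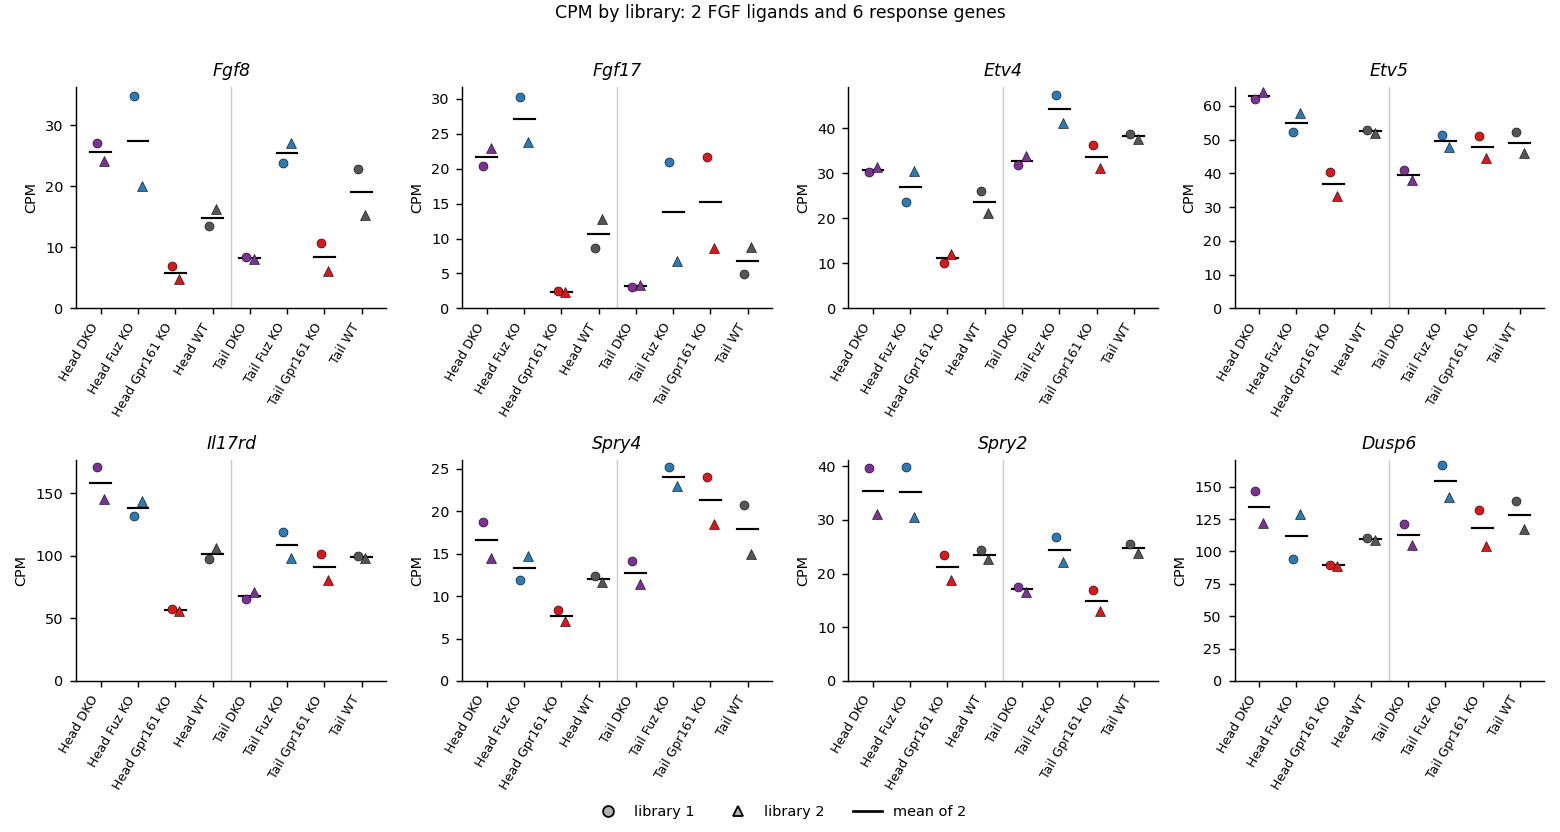
CPM in each of the 16 libraries for Fgf8, Fgf17 and 6 response genes, with circles for library 1, triangles for library 2 and a bar at the mean of the pair. In the Head panels the Gpr161 KO libraries are lowest in all 8 genes except Spry2, where one of them lies among the WT libraries, and in the Tail the DKO mean is the lowest in all of them except Spry2.

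The other 8 response genes had no call in these Head comparisons. Dusp6 had 147 and 122 CPM in Head DKO, 94.1 and 129 CPM in Fuz KO, 89.3 and 89.1 CPM in Gpr161 KO, and 110 and 109 CPM in WT, with log2 0.60 for DKO against Gpr161 KO (SE 0.17, adjusted p = 0.0668). Spry1 (log2 0.66, adjusted p = 0.158), Spred3 (log2 0.72, adjusted p = 0.117) and Etv1 (log2 0.51, adjusted p = 0.178) also had positive values there without passing. Flrt3 had log2 -0.06 with a 95% interval of -0.33 to 0.21, so a change as large as that of Etv5 lay outside its interval. The median over the 13 response genes was 0.66 in DKO against Gpr161 KO and -0.30 in Gpr161 KO against WT, where the median over all genes was 0.01 in both. Relative to the WT mean, the median of the 13 lay at 0.49 and 0.26 in the Head DKO libraries, 0.09 and 0.23 in Fuz KO, and -0.28 and -0.32 in Gpr161 KO, on the log2(CPM + 0.5) scale.

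**Figure D3:**
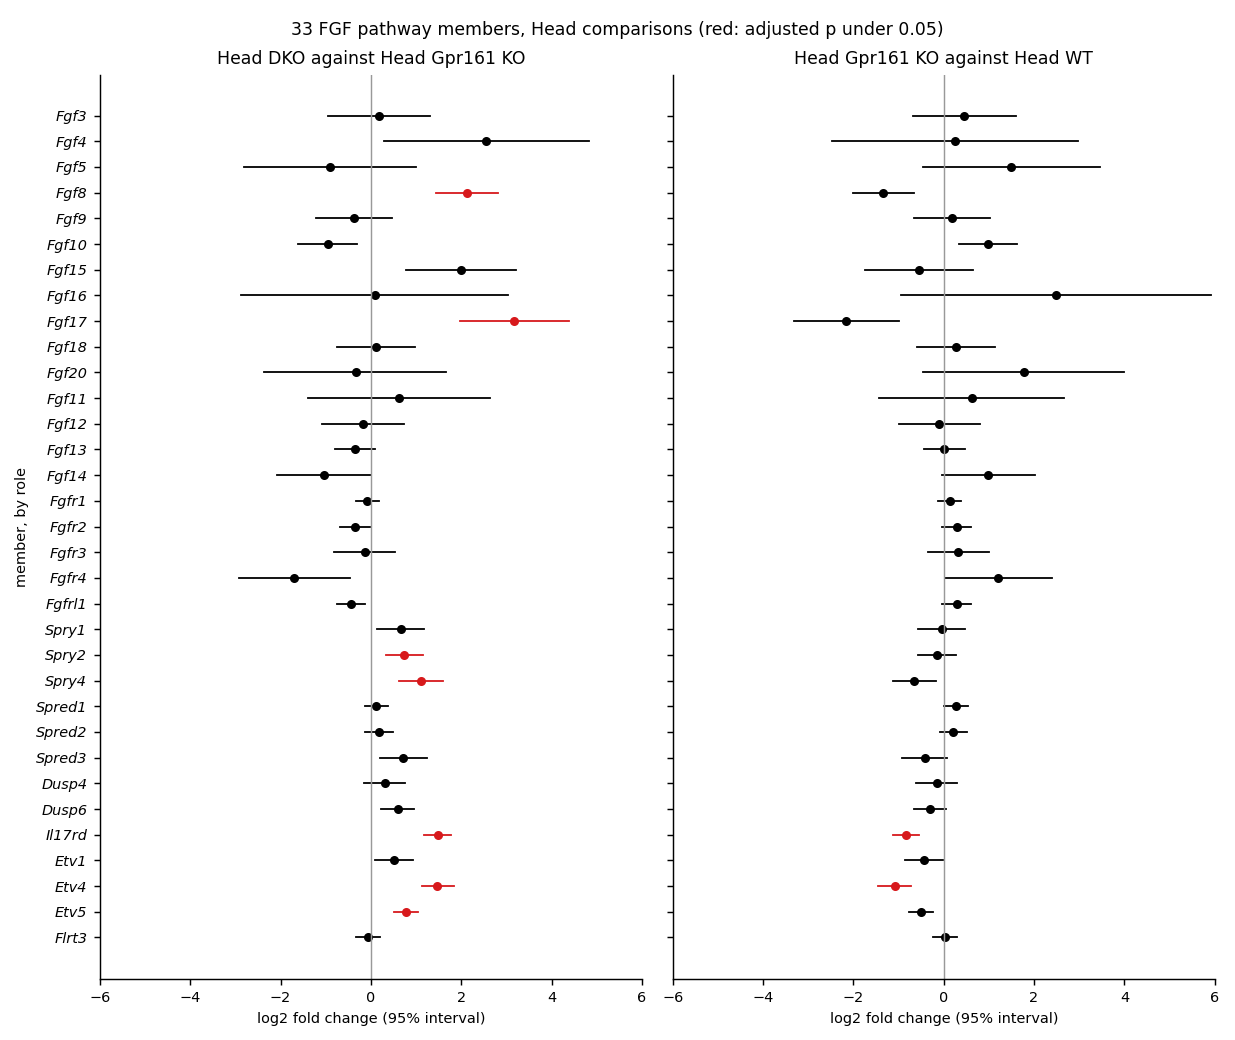
Log2 fold changes with 95% intervals for the 33 members in Head DKO against Head Gpr161 KO (left) and Head Gpr161 KO against Head WT (right), with red for an adjusted p under 0.05. The 7 red members on the left all lie above 0 and the 2 on the right, Il17rd and Etv4, both below 0, while Fgf4, Fgf16 and Fgf20 have the widest intervals.

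The log2 differences of the called members kept their direction with each library left out in turn, while several adjusted p rose above 0.05. Calls over all genes also fell in both comparisons with each library left out. In DKO against Gpr161 KO, Il17rd, Etv4 and Fgf8 passed with each of the 4 libraries left out in turn, with adjusted p of at most 0.00202, 0.00888 and 0.0379. Etv5 had 0.0712 without Gpr161 KO 2, Fgf17 had 0.0818 and 0.0974 without Gpr161 KO 1 and without Gpr161 KO 2, Spry4 had 0.0672, 0.148 and 0.139 without Gpr161 KO 1, Gpr161 KO 2 and DKO 1, and Spry2 had 0.0656 to 0.335 in all 4 cases. Their log2 differences then ran from 0.65 to 0.93 for Etv5, 3.1 to 3.26 for Fgf17, 0.92 to 1.29 for Spry4 and 0.56 to 0.92 for Spry2. In Gpr161 KO against WT, Etv4 had 0.0872 without Head WT 1 and 0.075 without Gpr161 KO 1, and Il17rd had 0.0552 to 0.0957 in all 4 cases, with log2 differences of -1.25 to -0.95 for Etv4 and -0.92 to -0.79 for Il17rd. Without the number 1 Fuz KO libraries, 11 members were called in DKO against Gpr161 KO, against 9.36% of all genes, and 6 in Gpr161 KO against WT, against 4.59%. Without the number 1 DKO libraries as well there were 9 in DKO against Gpr161 KO, against 10.7% of all genes and without Spry2 (adjusted p = 0.0774), and 5 in Gpr161 KO against WT, against 9.86%. With sex as a term Spry4 (adjusted p = 0.0639) and Spry2 (adjusted p = 0.179) did not pass and the other 5 did, where 2.52% of all genes were called. Only the Gpr161 KO groups held both sexes, so that term rested on the difference between their number 1 and number 2 libraries. These also differed in the hypoxia sum and, in the Head, the cardiomyocyte sum, so the term cannot set sex apart from such differences. DESeq2 called 12 members in DKO against Gpr161 KO, against 9.81% of the genes it gave an adjusted p, adding Fgf15, Dusp6, Spred3, Fgf10 and Fgfr4, of which Fgf10 and Fgfr4 were lower in DKO. In Gpr161 KO against WT it called 6, against 5.07% of those genes, adding Fgf8, Fgf17 and Etv5 as lower and Fgf10 as higher.

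Upstream sequence was read for genes that rose together in Head DKO over Head Gpr161 KO, where a window was available. Fgf8, Fgf17, Etv4 and Spry4, which also rose, had none. RefSeq's table for build GRCm38.p6 held windows for 24 of the 33 members, among them Il17rd, Spry2 and Etv5, and the 250 bases before each annotated start were searched on both strands for CCACCCA, the core of the motif bound by GLI factors, and CCGGAAG, the core of the ETS motif. The windows are Il17rd at chr14:27038751-27039000 on the plus strand, Spry2 at chr14:105896820-105897069 on the minus strand, and the 2 starts of Etv5 at chr16:22439571-22439820 and chr16:22438369-22438618 on the minus strand. Capitals mark a motif match, here TGGGTGG, the GLI core read on the opposite strand.
Il17rd: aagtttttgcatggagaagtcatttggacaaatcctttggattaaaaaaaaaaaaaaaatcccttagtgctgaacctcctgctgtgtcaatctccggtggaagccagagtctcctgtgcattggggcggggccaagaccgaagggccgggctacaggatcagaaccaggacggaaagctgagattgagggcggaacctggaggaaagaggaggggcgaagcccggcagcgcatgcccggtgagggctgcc
Spry2: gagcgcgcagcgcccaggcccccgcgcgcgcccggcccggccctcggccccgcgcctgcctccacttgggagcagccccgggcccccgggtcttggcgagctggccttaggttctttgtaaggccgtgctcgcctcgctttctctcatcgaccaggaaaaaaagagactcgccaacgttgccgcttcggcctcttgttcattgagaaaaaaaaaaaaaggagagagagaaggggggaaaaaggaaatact
Etv5 first start: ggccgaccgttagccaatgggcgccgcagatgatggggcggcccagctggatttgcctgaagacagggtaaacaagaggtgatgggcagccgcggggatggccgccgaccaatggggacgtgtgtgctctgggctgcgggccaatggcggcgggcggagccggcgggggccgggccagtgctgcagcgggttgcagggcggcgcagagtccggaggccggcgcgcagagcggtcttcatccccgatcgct
Etv5 second start: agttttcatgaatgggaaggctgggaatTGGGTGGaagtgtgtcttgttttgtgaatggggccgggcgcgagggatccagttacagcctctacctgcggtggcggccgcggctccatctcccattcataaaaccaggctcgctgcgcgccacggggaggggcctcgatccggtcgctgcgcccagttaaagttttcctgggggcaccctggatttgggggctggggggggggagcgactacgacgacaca
The second Etv5 window held the one match among these 4. The first bases after its start were not found in a GENCODE transcript of Etv5, while those of the other windows shown were found in their genes. Over the 33 windows of these 24 members, 3 of 33 held the GLI core, or 9.09%, in Fgf5, Etv1 and Etv5, and 1 of 33 held the ETS core, or 3.03%, in Fgfrl1. Among all 32851 windows in that file, 8.11% held the GLI core and 6.91% the ETS core. A match is a match of letters and not a measured site.

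Some genes listed as markers of the isthmus or of limb ectoderm were called in the same Head comparisons. Of 6 isthmus genes 1 fell in Gpr161 KO against WT, where 0.507% of all genes fell, and 3 rose in DKO over Gpr161 KO, where 1.03% of all genes rose. Of 4 genes listed for limb ectoderm 2 fell in Gpr161 KO against WT and 2 rose in DKO over Gpr161 KO. The 6 isthmus genes (En1, En2, Pax2, Pax5, Pax8 and Cnpy1) summed to 265 and 203 CPM in Head DKO, 328 and 193 CPM in Fuz KO, 39.2 and 47.8 CPM in Gpr161 KO, and 77.7 and 107 CPM in WT, and none of the 6 was at 0 in any library. Of these, Cnpy1, which promotes FGF signalling at the isthmus in zebrafish, fell by 2.09 on the log2 scale in Gpr161 KO against WT (SE 0.43, adjusted p = 0.0324), and Cnpy1, Pax5 and En2 rose by 3.31, 2.64 and 2.42 in DKO over Gpr161 KO. The 4 genes listed for limb ectoderm are Sp6, Sp8, Dlx5 and Dlx6, which are also expressed in facial ectoderm. Which Head cells their reads came from is not known from bulk RNA. They summed to 61.7 and 52.4 CPM in Head DKO, 54.9 and 55.9 CPM in Fuz KO, 14.7 and 10.8 CPM in Gpr161 KO, and 43.8 and 52.4 CPM in WT. Both sums were lowest in the libraries lowest in Fgf8 and Fgf17. Sp8, a zinc finger gene that acts upstream of Fgf8 in limb ectoderm, fell by 2.85 in Gpr161 KO against WT (SE 0.24, adjusted p = 0.000126), and Dlx5 fell by 1.49 (SE 0.34, adjusted p = 0.0419). The part of these tissues, and of the cardiomyocyte transcripts of the Gpr161 KO libraries, in the FGF results was not tested.

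Head Fuz KO and Head DKO were each compared with Head WT, and by edgeR's quasi-likelihood test 0 of 33 members passed in either. Of all genes edgeR called 0.047% in Fuz KO and 0.0329% in DKO. In Fuz KO 8 members had an unadjusted p under 0.05, against 8.17% of all genes, and DESeq2 called 0, against 0.285%. In DKO 9 members had an unadjusted p under 0.05, against 4.33% of all genes, and DESeq2 called 1, Il17rd, against 0.324%. The median over the members was 0.15 for Fuz KO and 0.38 for DKO, against 0.01 and 0 over all genes. The members of lowest p in Fuz KO were Il17rd (log2 0.45, SE 0.13), Spry2 (log2 0.58, SE 0.19) and Fgf8 (log2 0.89, SE 0.31), each with an adjusted p of 0.6. In DKO they were Il17rd (log2 0.64, SE 0.13, adjusted p = 0.281), Spred1 (log2 0.39, SE 0.12, adjusted p = 0.957) and Spry2 (log2 0.59, SE 0.19, adjusted p = 0.957). Without Head Fuz KO 2, which leaves Fuz KO 1 alone, 3 members were called in Fuz KO against WT, where 9.85% of all genes were. Spred1, which keeps RAS from activating RAF, had 146 and 127 CPM in Head DKO, 123 and 113 CPM in Fuz KO, 136 and 115 CPM in Gpr161 KO, and 103 and 105 CPM in WT, with the WT libraries lowest.

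Head DKO against Head Fuz KO gave values near 0. By edgeR's quasi-likelihood test 0 of 33 members passed, against 0.0282% of all genes. Only Spred2, an inhibitor related to Spred1, had an unadjusted p under 0.05, that is 1 member against 2.89% of all genes, and DESeq2 called 0, against 0.0575%. Spred2 had 69.0 and 57.5 CPM in Head DKO against 44.2 and 52.3 CPM in Fuz KO (log2 0.39, SE 0.14, adjusted p = 1). Spred1 (log2 0.21, SE 0.12) and Dusp6 (log2 0.28, SE 0.17) followed, both with an adjusted p of 1, and Dusp6 turned to -0.09 without the number 1 Fuz KO and DKO libraries. The 95% interval of this difference was -0.76 to 0.57 for Fgf8 and -1.40 to 0.76 for Fgf17.

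Non-additivity in the Head was tested as DKO minus Fuz KO minus Gpr161 KO plus WT. By edgeR's quasi-likelihood test 0 of 33 members passed, against 0.164% of all genes, and 8 had an unadjusted p under 0.05, against 8.02%. DESeq2 called 3, against 1.68% of all genes, which were the 3 members of lowest p in edgeR: Etv4 (log2 1.28, SE 0.23, adjusted p = 0.0504), Il17rd (log2 1.03, SE 0.19, adjusted p = 0.0555) and Etv5 (log2 0.71, SE 0.18, adjusted p = 0.197). For each the DKO lay above the added effects of Fuz KO and Gpr161 KO. Without Head Fuz KO 2 edgeR called 3 members, against 2.38% of all genes. The isthmic ligands had log2 1.24 for Fgf8 (adjusted p = 0.44) and 1.84 for Fgf17 (adjusted p = 0.532).

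Fgf15 and Fgf11 differed widely between the 2 libraries of the DKO and Fuz KO groups. Fgf15, a ligand of the neural tube, had 65.9 and 33.3 CPM in Head DKO, 67.6 and 30.2 CPM in Fuz KO, 11.6 and 13.3 CPM in Gpr161 KO, and 15.7 and 20.5 CPM in WT. The number 1 DKO and Fuz KO libraries were highest, their number 2 partners lay between them and WT, and log2 was 1.99 for DKO against Gpr161 KO (SE 0.56, adjusted p = 0.0752). In the Tail Fgf15 had 17.1 and 7.87 CPM in DKO, 19.8 and 8.57 CPM in Fuz KO, 6.94 and 4.6 CPM in Gpr161 KO, and 6.01 and 10.7 CPM in WT. Fgf11, an intracellular factor, had 11.4 and 2.67 CPM in Head DKO, 10.3 and 2.19 CPM in Fuz KO, 4.36 and 4.82 CPM in Gpr161 KO, and 2.74 and 3.24 CPM in WT. Its number 2 DKO and Fuz KO libraries lay below both WT libraries, and in the Tail the number 1 libraries were again higher, with 5.52 and 1.29 CPM in DKO and 8.77 and 1.75 CPM in Fuz KO, against 1.70 and 1.97 CPM in WT. The same number 1 libraries held the highest hypoxia sums, and the part of that state in these values was not tested. Over the 11 ligands the median difference from the WT mean, on the log2(CPM + 0.5) scale, was 0.98 and -0.03 in the Head Fuz KO libraries and 0.94 and -0.06 in the Tail Fuz KO libraries.

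**Figure D4:**
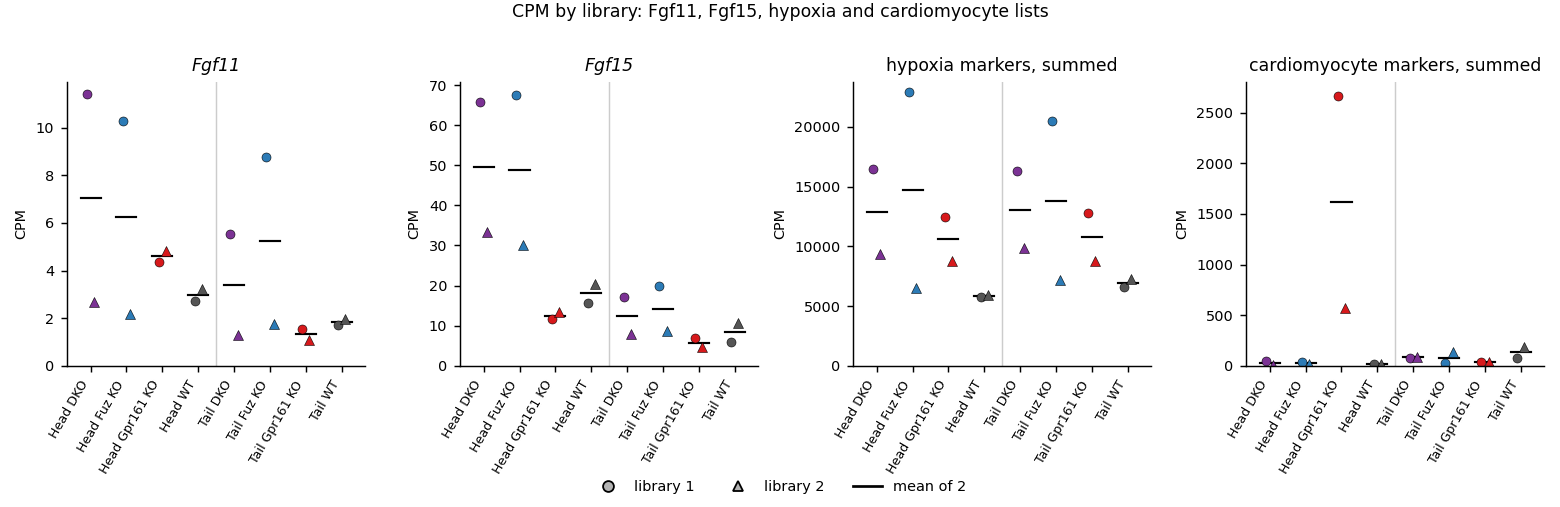
CPM in each of the 16 libraries for Fgf11 and Fgf15, and summed CPM of 19 hypoxia genes and 15 cardiomyocyte genes, with circles for library 1, triangles for library 2 and a bar at the mean of the pair. The number 1 DKO and Fuz KO libraries are high in Fgf11, Fgf15 and the hypoxia sum in both parts, and the cardiomyocyte sum is highest in the Head Gpr161 KO pair, at 2670 and 568.

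In the Tail no member passed in any comparison between genotypes by edgeR's quasi-likelihood test with all 16 libraries. In Tail Gpr161 KO against Tail WT 0 of 33 members passed, against 0.305% of all genes, and 4 had an unadjusted p under 0.05, against 6.98%. DESeq2 called 3, against 1.58% of all genes, and without the number 1 Fuz KO and DKO libraries edgeR called 1, Spry2 (log2 -0.74, SE 0.15, adjusted p = 0.0395), against 1.55%. The 3 were Fgf18 (log2 1.63, SE 0.41, adjusted p = 0.185), Spry2 (log2 -0.73, SE 0.19, adjusted p = 0.226) and Fgf8 (log2 -1.17, SE 0.31, adjusted p = 0.234), with the edgeR values given. Fgf18 had 16.0 and 8.47 CPM in Tail Gpr161 KO against 2.39 and 5.51 CPM in Tail WT, and Fgf8 had 10.8 and 6.17 CPM in Tail Gpr161 KO against 22.9 and 15.3 CPM in Tail WT. In these libraries Fgf18 lay above WT and Fgf8 below it, and neither difference passed by edgeR's test. Fgf17 had 21.7 and 8.68 CPM in Tail Gpr161 KO against 4.86 and 8.83 CPM in Tail WT (log2 1.15, SE 0.51, adjusted p = 0.699), and there the groups overlapped.

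Tail Fuz KO was set against Tail WT in the same way. By edgeR's quasi-likelihood test 0 of 33 members passed, against 0.0094% of all genes. At an unadjusted p under 0.05 there were 0 members, against 5.21% of all genes, and DESeq2 called 0, against 0.12%. Fgf17 (log2 1.01, SE 0.51), Spry4 (log2 0.43, SE 0.22) and Fgf18 (log2 0.76, SE 0.41) had the lowest p, all with an adjusted p of 0.816. Fgf17 had 20.9 and 6.72 CPM in Tail Fuz KO against 4.86 and 8.83 CPM in Tail WT, so its difference came from Fuz KO 1, and without that library the log2 value was -0.03.

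The Tail DKO libraries were the lowest of the Tail in several ligands and response genes, but not in all. In Flrt3 they were the highest of the Tail, at 117 and 135 CPM, and Fgf10 had its highest Tail mean in DKO, at 16.8 CPM. Against Tail WT 0 of 33 members passed by edgeR's quasi-likelihood test, against 0.0423% of all genes, and 8 had an unadjusted p under 0.05, against 7.19%. DESeq2 called 2, Fgf8 and Fgfr1, against 0.948% of all genes, and without the number 1 Fuz KO and DKO libraries edgeR called 1, Fgfr1 (log2 -0.66, SE 0.08, adjusted p = 0.0114), against 1.05%. Fgfr1, the most abundant kinase receptor here, had 122 and 102 CPM in Tail DKO, 165 and 145 CPM in Fuz KO, 155 and 157 CPM in Gpr161 KO, and 160 and 159 CPM in WT (log2 -0.52 for DKO against WT, SE 0.12, adjusted p = 0.3). Both DKO libraries lay under every other Tail library. Il17rd had 65.4 and 71.0 CPM in Tail DKO, 119 and 97.8 CPM in Fuz KO, 101 and 80.7 CPM in Gpr161 KO, and 99.4 and 98.2 CPM in WT (log2 -0.54 for DKO against WT, SE 0.13, adjusted p = 0.336). Fgf8 had 8.41 and 8.09 CPM in Tail DKO and 23.9 and 27.2 CPM in Tail Fuz KO, with log2 -1.21 for DKO against WT (SE 0.31, adjusted p = 0.367). The DKO level of Fgf8 thus lay within the range of Tail Gpr161 KO and under Tail Fuz KO and Tail WT.

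Tail DKO against Tail Fuz KO had 0 of 33 members past the threshold by edgeR's quasi-likelihood test, against 0.0329% of all genes. At an unadjusted p under 0.05 there were 14 members, against 3.69% of all genes, and DESeq2 called 4, against 0.161%. The members of lowest p were Fgf8 (log2 -1.63, SE 0.32, adjusted p = 0.366), Il17rd (log2 -0.67, SE 0.13, adjusted p = 0.442) and Spry4 (log2 -0.92, SE 0.22, adjusted p = 1), and DESeq2 called these and Fgf17. The median over the 33 members was -0.46, against 0.01 over all genes. Tail DKO against Tail Gpr161 KO had 0 past the threshold by edgeR's quasi-likelihood test, against 0.522% of all genes. At an unadjusted p under 0.05 there were 10 members, against 12.2% of all genes, and DESeq2 called 6, against 4.09%. Fgf18 (log2 -1.99, SE 0.42, adjusted p = 0.0557), Fgf17 (log2 -2.24, SE 0.53, adjusted p = 0.0897) and Fgfr1 (log2 -0.48, SE 0.12, adjusted p = 0.0979) had the lowest p. Without the number 1 Fuz KO libraries edgeR called 6 members, against 3.95% of all genes: Fgf3, Fgf17, Fgf18, Fgfr1 and Fgfrl1 were lower in DKO and Flrt3 higher. Without the number 1 DKO libraries as well it called 6, against 8.86%: Fgf3, Fgfr1, Fgfrl1, Spred2 and Spry4 were lower and Flrt3 higher. Spry4 had 14.1 and 11.4 CPM in Tail DKO, 25.2 and 23.0 CPM in Fuz KO, 24.1 and 18.5 CPM in Gpr161 KO, and 20.8 and 15.0 CPM in WT, again with both DKO libraries lowest.

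In the Tail, non-additivity had the lowest p in Fgf18, Fgf17 and Spry4. Its value was -3.25 for Fgf17 (SE 0.73, adjusted p = 0.302), -2.75 for Fgf18 (SE 0.58, adjusted p = 0.24) and -1.17 for Spry4 (SE 0.31, adjusted p = 0.486). By edgeR's quasi-likelihood test 0 of 33 members passed, against 0.0423% of all genes, and 9 had an unadjusted p under 0.05, against 6.24%. DESeq2 called 3, against 0.632% of all genes. Without Tail Fuz KO 2 edgeR called 2, against 0.456%. Fgf17 had 3.05 and 3.37 CPM and Fgf18 3.56 and 2.60 CPM in Tail DKO, while each had its highest Tail level in Gpr161 KO 1. The 8 tail bud genes (T, Tbx6, Msgn1, Cdx2, Cdx4, Wnt3a, Hes7 and Nkx1-2) summed to 49.7 and 38.8 CPM in Tail DKO, 193 and 75.9 CPM in Fuz KO, 224 and 107 CPM in Gpr161 KO, and 62.6 and 89.3 CPM in WT, with none at 0 in any Tail library. Their sum was highest in Gpr161 KO 1 and Fuz KO 1 and lowest in DKO, and its part in the ligand values was not tested.

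Fgf3 and Fgf4, ligands of the tail bud as well, had low counts. Fgf3 had 2.49 and 1.70 CPM in Tail DKO, 5.93 and 3.04 CPM in Fuz KO, 7.27 and 4.44 CPM in Gpr161 KO, and 2.68 and 3.96 CPM in WT. Fgf4 had 1.2 and 0.49 CPM in Tail DKO, 2.11 and 1.98 CPM in Fuz KO, 2.46 and 1.34 CPM in Gpr161 KO, and 2.35 and 1.83 CPM in WT. The DKO libraries were lowest in both genes, with adjusted p of 0.829 and 0.796 for DKO against WT.

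**Figure D5:**
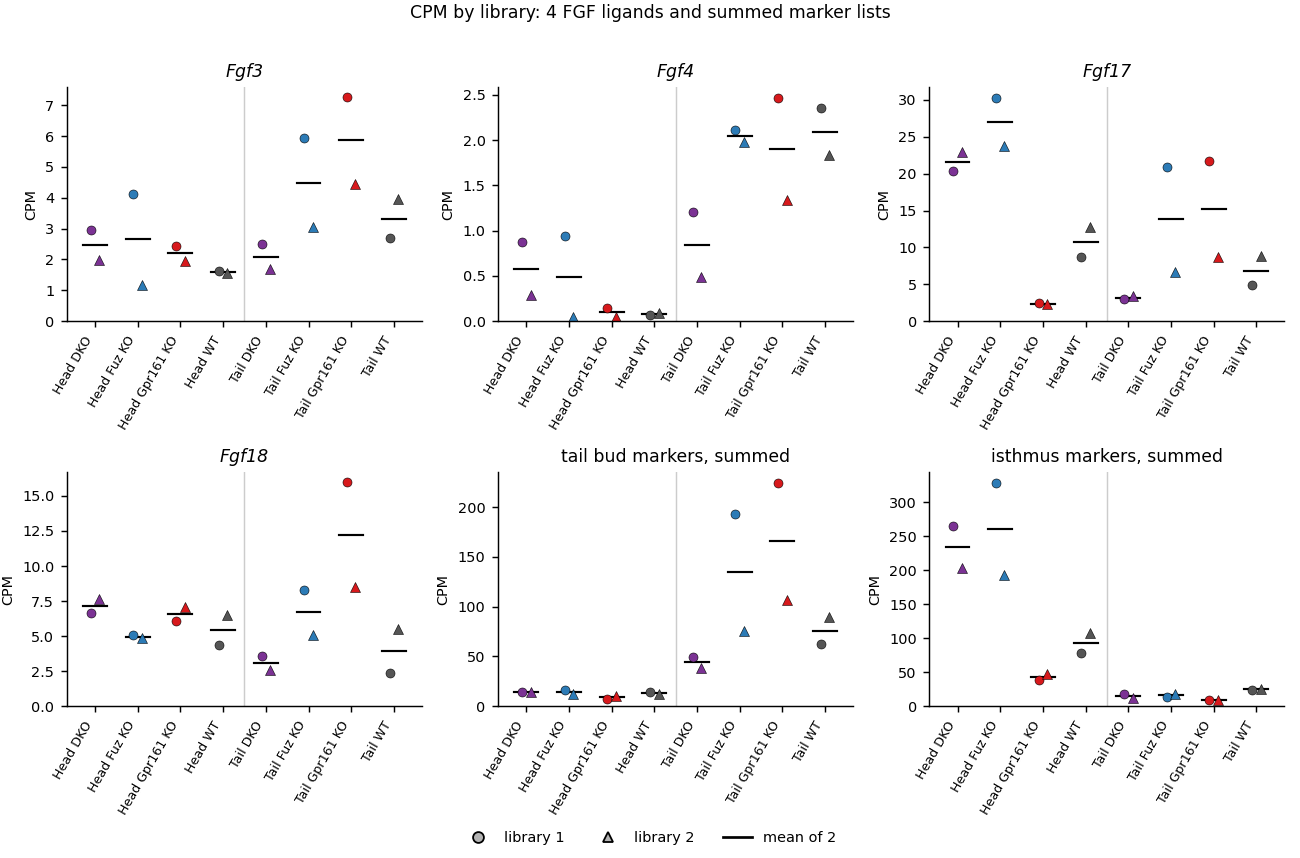
CPM in each of the 16 libraries for Fgf3, Fgf4, Fgf17 and Fgf18, and summed CPM of 8 tail bud and 6 isthmus genes, with circles for library 1, triangles for library 2 and a bar at the mean of the pair. In the Tail the number 1 Fuz KO and Gpr161 KO libraries lie above their number 2 partners in Fgf3, Fgf17, Fgf18 and the tail bud sum, and in the Head the isthmus sum is lowest in Gpr161 KO, as is Fgf17.

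Whether a genotype acted differently on the 2 parts was tested as its effect in the Tail minus its effect in the Head. For Gpr161 KO, 0 of 33 members passed by edgeR's quasi-likelihood test, against 0.094% of all genes, and 7 had an unadjusted p under 0.05, against 5.26%. DESeq2 called 2, against 1.12% of all genes. Fgf17 (log2 3.31, SE 0.74, adjusted p = 0.149), Etv4 (log2 0.91, SE 0.23, adjusted p = 0.218) and Il17rd (log2 0.72, SE 0.19, adjusted p = 0.252) had the lowest p, each with a lower value in the Head. With number within genotype as a replicate block 1 member passed, against 1.02% of all genes: Fgf17 (log2 3.21, SE 0.50, adjusted p = 0.0322). Without the number 1 Fuz KO libraries Fgf17 also passed alone (log2 3.31, SE 0.59, adjusted p = 0.0437), against 0.688%.

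For DKO the values ran the other way. By edgeR's quasi-likelihood test 0 of 33 members passed, against 0% of all genes, and 11 had an unadjusted p under 0.05, against 3.25%. DESeq2 called 2, Il17rd and Fgf8, against 0.0517% of all genes. Il17rd (log2 -1.18, SE 0.19, adjusted p = 0.409), Fgf8 (log2 -2.0, SE 0.44, adjusted p = 1) and Spry2 (log2 -1.12, SE 0.27, adjusted p = 1) had the lowest p. With the replicate block 2 passed, against 0.0893% of all genes: Il17rd (log2 -1.17, SE 0.16, adjusted p = 0.0175) and Spry2 (log2 -1.11, SE 0.16, adjusted p = 0.0175). Both were thus lower, relative to WT of the same part, in the DKO Tail than in the DKO Head. For Fuz KO 0 of 33 members passed by edgeR's quasi-likelihood test, against 0% of all genes, and 1 had an unadjusted p under 0.05, against 2.12%. DESeq2 called 0 members and 0% of all genes, and the block 0 members and 0.0047% of all genes. Spry2 (log2 -0.60, SE 0.27), Fgf4 (log2 -2.58, SE 1.35) and Il17rd (log2 -0.31, SE 0.19) all had an adjusted p of 1. The value of Fgf4 turned to 0.69 without Head Fuz KO 1, which held 36 of that pair's reads against 2 in Head Fuz KO 2.

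The most abundant receptors varied by less than 2-fold across all 16 libraries. Fgfr1 ran from 102 to 171 CPM, Fgfr2 from 97.5 to 157 CPM and Fgfrl1 from 26.9 to 50.1 CPM, and no receptor was called between genotypes by edgeR's quasi-likelihood test with all 16 libraries. Fgfr3 ran from 50.5 to 83.6 CPM in the Head and from 27.1 to 51.8 CPM in the Tail. Fgfr4 had 0.236 and 0.355 CPM in Head DKO, 0.156 and 0.476 CPM in Fuz KO, 0.764 and 1.16 CPM in Gpr161 KO, and 0.247 and 0.587 CPM in WT, with log2 -1.70 for DKO against Gpr161 KO (SE 0.57, adjusted p = 0.122). In Fgfrl1 both Gpr161 KO pairs were the highest of their part, at 40.8 and 46.0 CPM in the Head and 48.6 and 50.1 CPM in the Tail, against 36.4 and 34.5 CPM in Head WT and 39.9 and 41.9 CPM in Tail WT. Its log2 differences from WT were 0.29 and 0.27 (SE 0.15 each), and neither passed.

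The remaining members are given as ranges over the libraries. Fgf9, a ligand of several epithelia, ran from 3.04 to 8.33 CPM, and Fgf5, Fgf16 and Fgf20 stayed under 2 CPM in all libraries. The intracellular factors Fgf12 and Fgf14 ran from 0.568 to 2.83 CPM and from 0.67 to 5.52 CPM, while Fgf13 had 13.8 to 20.0 CPM in the Head libraries and 4.78 to 9.36 CPM in the Tail libraries, so its regional difference held in every genotype without overlap. Dusp4 ran from 30.7 to 45.7 CPM in the Head and from 34.3 to 71.7 CPM in the Tail.

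Other genes of the pathway were read from 4 lists: 7 further ligands, 19 signal transducers, 18 genes of heparan sulphate and co-receptors, and 10 further ERK response genes. In Head Gpr161 KO against Head WT 2 of 18 heparan sulphate and co-receptor genes rose and 0 fell. Of all genes 1.51% rose and 0.507% fell there. The other 3 lists had 0 calls by edgeR's quasi-likelihood test, against 2.02% of all genes. An unadjusted p under 0.05 was found for 1 of 7 further ligands, 3 of 19 transducers and 0 of 10 response genes. The share of all genes at that threshold is not given here, so these counts are not set against it. Sulf1, which removes sulphate groups that FGF ligands need on heparan sulphate, rose by 1.61 in log2 (SE 0.16, adjusted p = 0.000362), and Gpc3, a cell surface proteoglycan, by 0.76 (SE 0.12, adjusted p = 0.00582). In Head DKO against Head Gpr161 KO both fell, Sulf1 by 2.13 (SE 0.16, adjusted p = 1.97e-05) and Gpc3 by 0.52 (SE 0.12, adjusted p = 0.0247), and Flrt1, a relative of Flrt3, rose by 1.75 (SE 0.39, adjusted p = 0.0259). There the adaptor gene Gab1 fell by 0.61 (SE 0.14, adjusted p = 0.0279), 1 of 19 transducers, and the ligand gene Fgf1 by 1.89 (SE 0.48, adjusted p = 0.044), 1 of 7 further ligands. Over all genes, 1.03% rose and 3.13% fell in Head DKO against Head Gpr161 KO. This comparison and Head Gpr161 KO against Head WT share the Head Gpr161 KO libraries. Between Head WT and Tail WT, Sulf1 (log2 1.36) and Gpc4 (log2 0.82) were higher and Gpc3 (log2 -0.89) and Myc (log2 -0.72) lower in the Head. Of all genes 2.02% were higher and 1.74% lower there. In the other 13 comparisons none of the 4 lists had a call.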

How the data were processed

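RNA of 16 libraries (poly-A selected, NEBNext Ultra, per the labels' protocols) was analysed, 2 from each part and genotype. The authors deposited unnormalized whole-number counts for each Ensembl gene. Per the submitters' processing notes the tools were featureCounts 1.6.0, HTSeq, StringTie 2.0.4, STAR 2.7.1a, Picard 2.20.4, Trimmomatic and FastQC, with the build GRCm39, and the role of each is not stated. The strand setting of the counting is not given in the sources used here, so reads of overlapping genes on opposite strands cannot be told apart. Names were found for 54809 of the 54838 identifiers, and exon lengths came from a GRCm38 annotation used for names and lengths alone.

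Counts were filtered with filterByExpr, scaled by TMM and fitted with edgeR 4.0.16 in R 4.3.3 over all 16 libraries, with 1 coefficient per group (8 residual degrees of freedom, robust quasi-likelihood test, common biological coefficient of variation 0.257). There were 16 comparisons. The SE is that implied by the F statistic, and intervals are at 95%. The totals of 39062489 to 53680317 counts set the precision of low genes. The fit was tested on simulated data. Members and lists were chosen with earlier results of these data known. All 33 members are named. Full statistics are given for each member called in a comparison and, where fewer than 3 were called, for those of lowest p up to 3. Levels by library are given for members called in any comparison and for Fgf8, Fgfr1, Spry4 and Dusp6. Levels of Fgf3, Fgf10, Fgf11, Fgf15, Fgf18, Fgfrl1, Spred1 and Spred2, and statistics of further uncalled members, were added after their values were seen. Of the other pathway lists, at most 3 called genes a list are named.

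Alternatives were RLE scaling, no filter, at least 5 CPM in 2 libraries, each part fitted alone, DESeq2 1.42.0 (shares are of the genes it gave an adjusted p), replicate blocks, sex as a term, and leaving out libraries. The sex term rested on the Gpr161 KO libraries alone, since no other group held both sexes. Deviations of number 1 from number 2 were compared across genes between the parts: r was 0.282 for DKO, 0.437 for Fuz KO, 0.196 for Gpr161 KO and 0.133 for WT, so numbers were taken to pair the parts within a genotype. Between genotypes r ran from -0.0787 to 0.302, a range that also holds the values of DKO, Gpr161 KO and WT. Numbers were not taken as pairs between genotypes.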

Additional observations from a re-analysis of the deposited data

How the results depend on the processing

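Counts are members called, of 33, and the cause of each shift was not tested. Leaving out 1 library gave 3 to 6 in Head DKO against Gpr161 KO (7 with all), 0 to 1 in Head Gpr161 KO against WT (2 with all), 0 to 3 in Head Fuz KO against WT, 1 to 2 in Head WT against Tail WT (5 with all), 0 to 3 in Head non-additivity, 0 to 2 in Tail non-additivity and 0 to 0 in the other comparisons. Of these, the calls in Fuz KO against WT and in both non-additivity terms arose without Fuz KO 2, and a group left with 1 library is assumed to vary like the others. Where the member count fell, calls over all genes fell as well with each library left out. The fall was thus not particular to the members. Without a filter on low counts 42241 genes were tested, and calls over all genes stand in brackets. There were 13 (1780) in Head DKO against Gpr161 KO and 9 (1688) in Head WT against Tail WT. Head Gpr161 KO against WT had 5 (1319) and Tail DKO against Gpr161 KO 5 (794). Head DKO against WT had 4 (432), Head Fuz KO against WT 4 (780) and Tail Gpr161 KO against WT 4 (802). Head non-additivity had 4 (715) and the DKO effect between parts 4 (144). Tail Fuz KO against WT had 3 (519) and Tail DKO against Fuz KO 3 (151). Tail DKO against WT had 2 (481), Tail non-additivity 2 (549) and the Gpr161 KO effect between parts 1 (439). With the filter, 886 of 21284 genes were called in Head DKO against Gpr161 KO and 10 in Head Fuz KO against WT. DESeq2 called 12 in Head DKO against Gpr161 KO, 6 in Head Gpr161 KO against WT and in Tail DKO against Gpr161 KO, 4 in Tail DKO against Fuz KO, 3 in Tail Gpr161 KO against WT and both non-additivity terms, 2 in Tail DKO against WT and in the Gpr161 KO and DKO effects between parts, and 1 in Head DKO against WT. Head Gpr161 KO against WT had 4 with RLE scaling and 4 with at least 5 CPM. It had 3 with the Head fitted alone and 4 with sex as a term. Over all genes these settings called 402 of 21284, 444 of 12209, 258 of 19996 and 196 of 21284. With at least 5 CPM Head non-additivity had 1 and Head WT against Tail WT had 3, where 37 and 665 of 12209 genes were called. Without both number 1 Fuz KO libraries there were 11 in Head DKO against Gpr161 KO, 6 in Head Gpr161 KO against WT and in Tail DKO against Gpr161 KO, and 1 in the Gpr161 KO effect between parts. Without both number 1 DKO libraries as well there were 6 in Tail DKO against Gpr161 KO, 5 in Head Gpr161 KO against WT, and 1 in Tail Gpr161 KO against WT and Tail DKO against WT.

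The number was also used as a replicate block across genotypes, which the data did not show to be pairs. There were then 4 in Head Gpr161 KO against WT and 2 in Head non-additivity (Etv4 and Il17rd). Tail DKO against Gpr161 KO had 2 and Tail Gpr161 KO against WT had 1. Of all 21284 genes that block called 659, 86, 231 and 122 in these comparisons, in the order given. With the replicate block of number within genotype, there were 11 in Head WT against Tail WT, 2 in the DKO effect between parts and 1 in the Gpr161 KO effect. The block changed no other call count by over 1.5 times.

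Of single values, Fgf17 in Tail Fuz KO against WT (1.01 with all libraries) was -0.03 without the number 1 Fuz KO libraries or without Tail Fuz KO 1 alone, 1.61 without Tail Fuz KO 2, and -0.01 without the number 1 DKO libraries as well. Fgf4 in the Fuz KO effect between parts was 0.64 and 0.67 under the same omissions, 0.69 without Head Fuz KO 1 alone and -3.46 without Head Fuz KO 2, against -2.58 with all libraries. Dusp6 in Head DKO against Fuz KO was -0.09 without the number 1 Fuz KO and DKO libraries. With 2 libraries a group and few reads of Fgf4, Fgf5, Fgf16 and Fgf20, differences in those ligands were not detectable at this depth unless large.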
